A study of Mus musculus with 9 samples.

Results

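Nt5e and 9 further genes of extracellular adenosine handling were read from 3′ end sequencing of 9 engineered muscle constructs. The 10 genes, out of 40879 symbols in each count table, were Nt5e, Entpd1, Entpd2, Enpp1, Ada, Adk, Adora1, Adora2a, Adora2b and Slc29a1. They were chosen by symbol around Nt5e because Nt5e had no count in irradiated constructs, so its absence there is what chose the set and is given below as a description with no p-value. All 10 genes had a count in some library. The filter on low counts was passed by 6 of them, Nt5e, Enpp1, Adk, Adora2a, Adora2b and Slc29a1, and the other 4 are described by their counts.

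The constructs held C2C12 cells, an established mouse myoblast line of labelled genotype WT, embedded in matrix derived from muscle tissue. All 3 groups spent 2 days in growth medium and 10 days in a differentiation medium with 10% equine serum. Irradiated constructs had been exposed once to X-rays, at 20 Gy, which the series describes as making them senescent; how long before harvest is not given in the sources used here. Cocultured constructs were not irradiated themselves but shared a dish with an irradiated construct, and normal constructs were neither irradiated nor cocultured. Each group had 3 libraries. The series text counts 2 samples for irradiated and 2 for normal constructs and places 2 constructs of a condition in a dish, so separate cultures are not assured and each p-value speaks of the spread among the libraries at hand, which may be partly technical.

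Cells release ATP, and ectonucleotidases on the cell surface cut it down in steps. CD39, the product of Entpd1, turns ATP and ADP into AMP, and CD73, the product of Nt5e, is the ecto-5′-nucleotidase that turns AMP into adenosine. Adenosine then acts on a small family of G protein-coupled receptors, which raise or lower cAMP, until it is carried into cells by equilibrative transporters and phosphorylated by adenosine kinase or deaminated by adenosine deaminase. CD73 is also a common surface marker of mesenchymal stromal cells.

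The promoters of 3 of the genes are shown because Nt5e is the gene at 0 in irradiated constructs, while Enpp1 and Adora2b had counts in all 9 libraries and a single window each in the table used. The sequences are RefSeq windows on build GRCm38.p6, from 250 bases before to 50 bases after the transcript start, printed 5′ to 3′ on the strand of the gene. They lie at chr9:88327359-88327658 on the plus strand for Nt5e, chr10:24712110-24712409 on the minus strand for Enpp1 and chr11:62248734-62249033 on the plus strand for Adora2b. Capitals mark matches, on either strand, to a GC box or to ACGTG, a form of the core of the hypoxia response element.
Nt5e: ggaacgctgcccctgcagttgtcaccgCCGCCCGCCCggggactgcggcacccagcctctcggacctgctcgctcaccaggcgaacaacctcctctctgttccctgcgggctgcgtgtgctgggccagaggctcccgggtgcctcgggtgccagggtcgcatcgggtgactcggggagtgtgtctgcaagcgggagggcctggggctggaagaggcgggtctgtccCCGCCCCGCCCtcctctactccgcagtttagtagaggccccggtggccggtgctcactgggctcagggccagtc
Enpp1: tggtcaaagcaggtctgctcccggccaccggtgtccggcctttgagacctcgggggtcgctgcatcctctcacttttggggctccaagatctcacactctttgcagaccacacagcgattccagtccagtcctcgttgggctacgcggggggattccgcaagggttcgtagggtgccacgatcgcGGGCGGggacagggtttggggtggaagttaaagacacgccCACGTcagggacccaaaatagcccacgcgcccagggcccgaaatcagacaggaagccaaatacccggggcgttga
Adora2b: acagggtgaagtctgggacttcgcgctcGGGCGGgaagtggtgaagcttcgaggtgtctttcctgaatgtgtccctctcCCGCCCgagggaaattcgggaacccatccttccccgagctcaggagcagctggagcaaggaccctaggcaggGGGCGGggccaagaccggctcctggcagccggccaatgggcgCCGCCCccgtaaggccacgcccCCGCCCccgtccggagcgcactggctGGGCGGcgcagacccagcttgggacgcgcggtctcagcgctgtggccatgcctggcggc
All 3 windows were rich in CpG, with 23 CpG dinucleotides for Nt5e, 22 for Enpp1 and 27 for Adora2b, where the median of all windows was 7. The GC box, GGGCGG, occurred 4 times before Nt5e, in overlapping pairs, once before Enpp1 and 6 times before Adora2b, and 35.7% of all 32851 windows of the same length held it. The hypoxia core was searched as ACGTG alone. That form was found before Enpp1, and 19.6% of all windows held it. The other form, GCGTG, was not searched or marked. All 3 windows hold it, Nt5e as printed and Enpp1 and Adora2b as CACGC, its form on the other strand. Neither the cAMP response element TGACGTCA, held by 1.79% of windows, nor TATAAA, held by 13.6%, matched any of the 3. These matches describe the letters of the windows alone.

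The libraries held 6485655 to 8290468 counts in the irradiated group, 7506605 to 8035763 in the cocultured group and 4840993 to 6607557 in the normal group. Irradiated 2 and irradiated 3 had the fewest symbols with a count, 8306 and 8654, against 11126 in irradiated 1, 10002 to 11851 in cocultured and 11329 to 14159 in normal constructs. Among genes averaging 20 to 50 CPM, which are counts scaled to a common library size, over the unirradiated constructs, the share at 0 was 20.5% in irradiated 2, 17.1% in irradiated 3, 5.23% in irradiated 1 and 0.0675% to 3.54% in the other 6 libraries. The range was set on the unirradiated libraries themselves, which in part holds their shares low. Zeros have to be read against the background of these libraries, with that limit: 37 of the 90 gene-by-library values of the 10 genes were 0. Muscle lineage markers had counts for 12 of 12 genes, with a summed level of 7566 to 49322 normalised CPM in irradiated, 4359 to 8766 in cocultured and 4995 to 78998 in normal constructs. The highest sums belonged to irradiated 1 and normal 3. Each irradiated library held 11 of the 12 genes. The gene missing from them was Myf5, with 0, 0 and 0 counts in irradiated, 27, 116 and 283 in cocultured and 53, 88 and 7 in normal constructs. Over the 12 markers the fitted log2 difference between irradiated and normal constructs was positive for 6 and negative for 6.

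Nt5e had no count in any of the 3 irradiated libraries. It had 783, 1034 and 1241 counts in the 3 cocultured libraries and 831, 352 and 490 in the 3 normal libraries. Every unirradiated library thus held at least 352 counts of the gene, and the irradiated group did not overlap either of the others. As normalised CPM, that is CPM after scaling for composition, Nt5e was at 83.9, 107 and 140.3 in cocultured and at 171, 80.0 and 134 in normal constructs. The means were 110.4 ± 28.3 in cocultured and 128 ± 45.6 normalised CPM in normal constructs (SD, n = 3 each). A floor of 3 counts over the irradiated group corresponds to 0.126 normalised CPM. Against it Nt5e was at least 1029-fold lower in irradiated than in normal constructs and at least 873-fold lower than in cocultured ones. The bounds follow the depth of the irradiated libraries: they were 570 and 484 without irradiated 2, and 661 and 561 without irradiated 3. In bulk RNA, fewer cells of a type and less RNA per cell cannot be told apart. The floors, and the fold bounds drawn from them, cover counting error only.

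**Figure D1:**
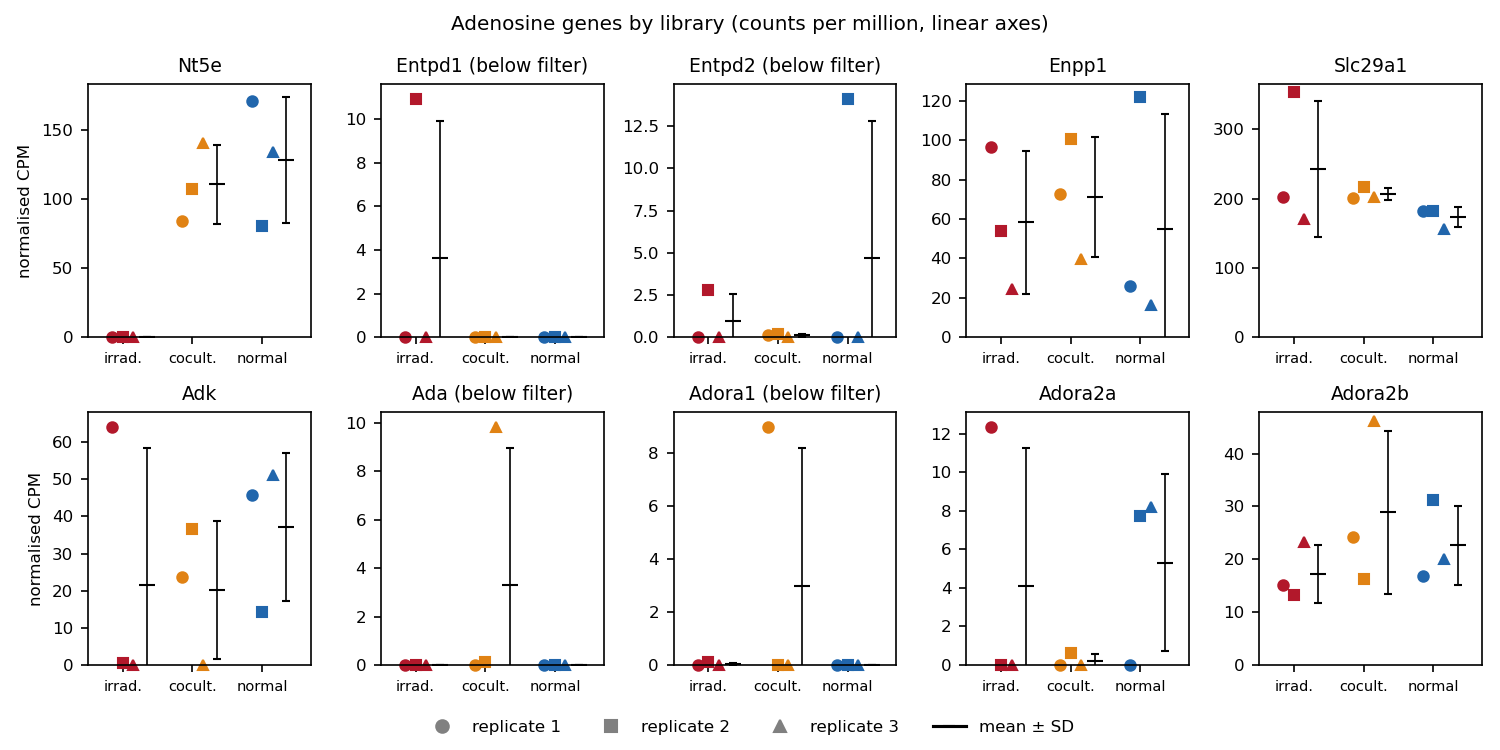
Normalised CPM of the 10 adenosine genes in each of the 9 libraries, on linear axes that differ between panels, with irradiated, cocultured and normal constructs from left to right. Black bars give the mean ± SD of 3 libraries, cut at 0, and Nt5e stands at 0 in the 3 irradiated libraries and between 80.0 and 171 in the other 6.

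Few genes of such a level were missing from the irradiated libraries. Of the 2032 genes whose normal mean lay within 0.5 to 2 times that of Nt5e, 1938, or 95.4%, had a count in every irradiated library. A further 87 lacked a count in exactly 1 irradiated library and 6 in exactly 2, and Nt5e was the 1 gene that lacked it in all 3. Nt5e was chosen for that absence and the range was set around its own normal mean, so its place there is a description only. Just below that range, which began at a normal mean of 64.1 normalised CPM, stood Rrp1b at 62.1 and further down Gap43 at 51.0, both of them also without a count in the irradiated group. Just outside the criterion that chose the set stood Wfdc17, with 4 irradiated counts against 1332 in the normal group, and Il1a, which encodes the cytokine interleukin-1 alpha, with 12 against 1350. Lower down the range absence was common: 944 of the 11980 tested genes, or 7.88%, had no count in the whole irradiated group, against 414, or 3.46%, in the cocultured and 63, or 0.526%, in the normal group.

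**Figure D2:**
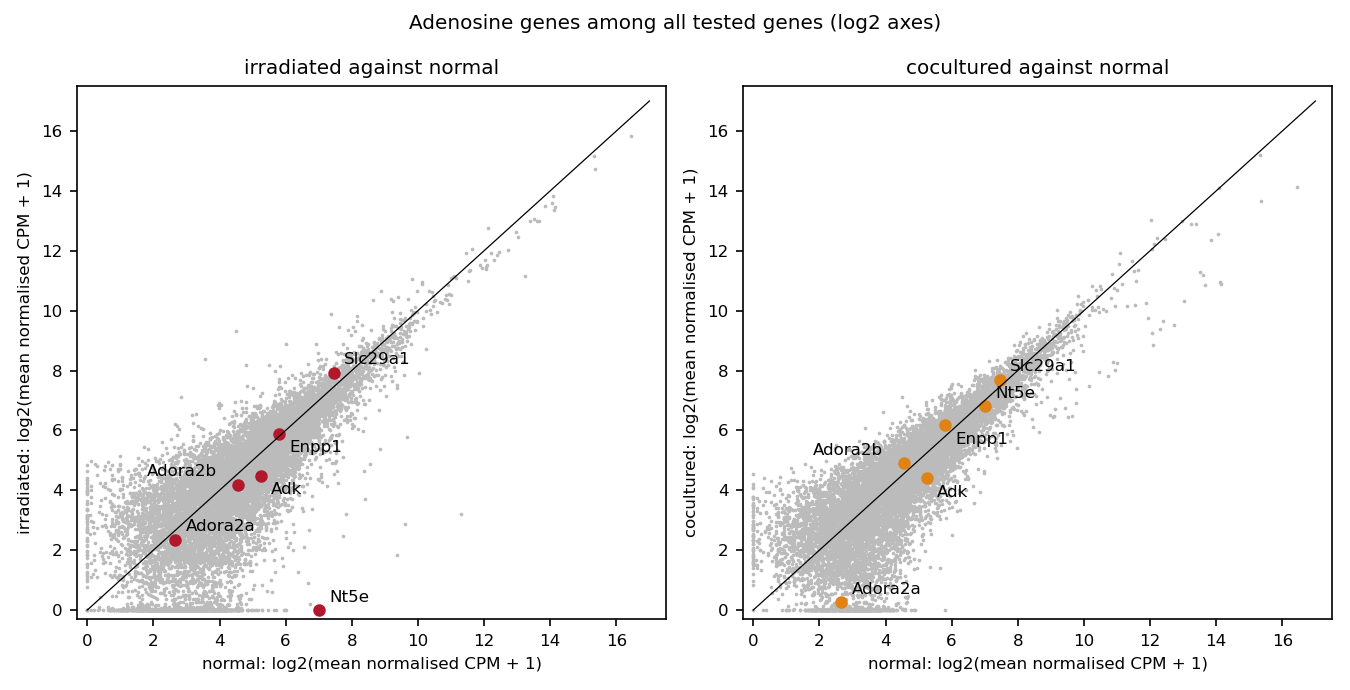
Mean normalised CPM of the 6 adenosine genes above the filter (coloured) among all 11980 tested genes (grey), as log2(mean + 1), for irradiated (left panel) and cocultured (right panel) constructs on the vertical axis and normal constructs on the horizontal axis; the line marks equality. Nt5e lies on the horizontal axis in the irradiated panel and near the line in the cocultured panel, where Adora2a lies lowest of the 6.

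Coculture with an irradiated construct went with no called change in Nt5e. The fitted log2 difference between cocultured and normal constructs was -0.22 ± 0.48 (SE), with a 95% interval of -1.28 to 0.85, and edgeR's quasi-likelihood test gave an adjusted p of 1 (n = 3 each). The 3 cocultured values lay between the lowest and the highest normal value. The sign of this difference turned with the scaling, to 0.33 on library totals, a change that moved the median of all genes from -0.07 to 0.48 in the same comparison, and it turned to 0.07 without normal 1.

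The enzymes that feed AMP to CD73 were a mixed group. Entpd1, which encodes CD39, had 116 counts in irradiated 2 and none in the other 8 libraries. Entpd2, a related ectonucleotidase that prefers ATP, had 30 counts in irradiated 2, 1 and 2 counts in cocultured 1 and 2 and 62 counts in normal 2, and none elsewhere. Entpd1 thus rested on a single library and Entpd2 mainly on a pair from different groups. In the mouse annotation of GENCODE M21 Entpd1 overlaps small genes, and Entpd2 the gene Npdc1, on the same strand. Enpp1, an ectoenzyme that splits ATP directly into AMP and pyrophosphate, was the upstream enzyme with counts throughout. It had 96.5, 54.0 and 24.5 normalised CPM in irradiated, 73.0, 101 and 39.8 in cocultured and 25.9, 122 and 16.4 in normal constructs. The 3 groups overlapped fully, and normal 2 alone held the highest value. Enpp1 averaged 58.3 ± 36.2 in irradiated, 71.2 ± 30.5 in cocultured and 54.8 ± 58.4 normalised CPM in normal constructs (SD, n = 3 each). Its log2 difference was 0.09 ± 0.77 between irradiated and normal constructs (SE, no test). For irradiated against cocultured constructs it was -0.29 ± 0.77, with a 95% interval of -1.96 to 1.38 (edgeR's quasi-likelihood test, adjusted p = 1). For cocultured against normal constructs it was 0.38 ± 0.77, with an interval of -1.30 to 2.05 (edgeR's quasi-likelihood test, adjusted p = 1).

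Slc29a1, which encodes the equilibrative nucleoside transporter ENT1, was the most counted of the 10 genes. In the GENCODE M21 annotation the antisense gene Gm17080 overlaps it on the opposite strand. Slc29a1 had 202, 354 and 171 normalised CPM in irradiated, 201, 216 and 203 in cocultured and 182, 182 and 157 in normal constructs. Irradiated 2 was the highest library, the 3 cocultured values lay above all 3 normal ones, and the irradiated range overlapped both groups. The means were 242 ± 98.3 in irradiated, 207 ± 8.33 in cocultured and 174 ± 14.5 normalised CPM in normal constructs (SD, n = 3 each). The fitted log2 difference was 0.25 ± 0.34 for cocultured against normal constructs, with a 95% interval of -0.48 to 0.98 (edgeR's quasi-likelihood test, adjusted p = 1). Of the 6 genes above the filter, Slc29a1 was the 1 whose cocultured and normal libraries did not overlap, while 13.2% of all tested genes showed such a separation. Irradiated constructs differed by 0.48 ± 0.34 from normal ones (log2, SE, no test), which fell to 0.10 without irradiated 2. Against cocultured constructs the difference was 0.23 ± 0.34, with an interval of -0.50 to 0.96 (edgeR's quasi-likelihood test, adjusted p = 1), and it turned to -0.15 without irradiated 2.

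The enzymes that consume adenosine were scattered. Adk, the kinase that returns adenosine to AMP, had 301, 5 and 0 counts in irradiated, 221, 355 and 0 in cocultured and 223, 63 and 187 in normal constructs. All 3 normal libraries held it, while irradiated 3 and cocultured 3 did not, and irradiated 1 held the highest normalised level, 64.1 CPM. Adk averaged 21.5 ± 36.9 in irradiated, 20.1 ± 18.6 in cocultured and 37.1 ± 19.9 normalised CPM in normal constructs (SD, n = 3 each). In the GENCODE M21 annotation it overlaps the RNA gene Gm26372 on the same strand. The intervals were wide, from -5.24 to 3.47 around a log2 difference of -0.88 for cocultured against normal constructs (edgeR's quasi-likelihood test, adjusted p = 1). For irradiated against cocultured constructs the difference was 0.09, with an interval of -4.23 to 4.42 (edgeR's quasi-likelihood test, adjusted p = 1), and -6.29 without irradiated 1. Ada, adenosine deaminase, had 1 and 87 counts in cocultured 2 and 3 and none in the other 7 libraries. A single library therefore carried nearly all of its counts, and no fold change is drawn from it.

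Among the receptors, Adora2b, the low-affinity A2B receptor that couples to Gs and raises cAMP, was the 1 with counts in every library. It had 15.1, 13.2 and 23.3 normalised CPM in irradiated, 24.2, 16.2 and 46.1 in cocultured and 16.8, 31.1 and 20.0 in normal constructs. The groups overlapped, and cocultured 3 was the highest library. Adora2b averaged 17.2 ± 5.40 in irradiated, 28.9 ± 15.5 in cocultured and 22.6 ± 7.51 normalised CPM in normal constructs (SD, n = 3 each). The log2 difference was -0.40 ± 1.03 between irradiated and normal constructs (SE, no test; 0.03 on library totals). It was -0.74 ± 1.03 for irradiated against cocultured constructs, with an interval of -2.98 to 1.49, and 0.35 ± 1.03 for cocultured against normal constructs, with an interval of -1.88 to 2.58 (edgeR's quasi-likelihood test, adjusted p = 1 for both).

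Adora2a, a high-affinity adenosine receptor gene whose product also couples to Gs, had 58, 0 and 0 counts in irradiated, 0, 6 and 0 in cocultured and 0, 34 and 30 in normal constructs. It passed the filter on the few counts of irradiated 1, normal 2 and normal 3, and every group had a library at 0. The log2 difference was 4.20, with an interval of -3.28 to 11.7, for irradiated against cocultured constructs (edgeR's quasi-likelihood test, adjusted p = 0.866), and -3.75 without irradiated 1. For cocultured against normal constructs it was -4.57, with an interval of -12.2 to 3.05 (edgeR's quasi-likelihood test, adjusted p = 1). Adora1, the Gi-coupled A1 receptor that lowers cAMP, had 1 count in irradiated 2 and 84 in cocultured 1 and none elsewhere. It overlaps Mybph, a myosin binding protein gene, on the opposite strand, and whether the counting used strand is not given in the sources used here.

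**Figure D3:**
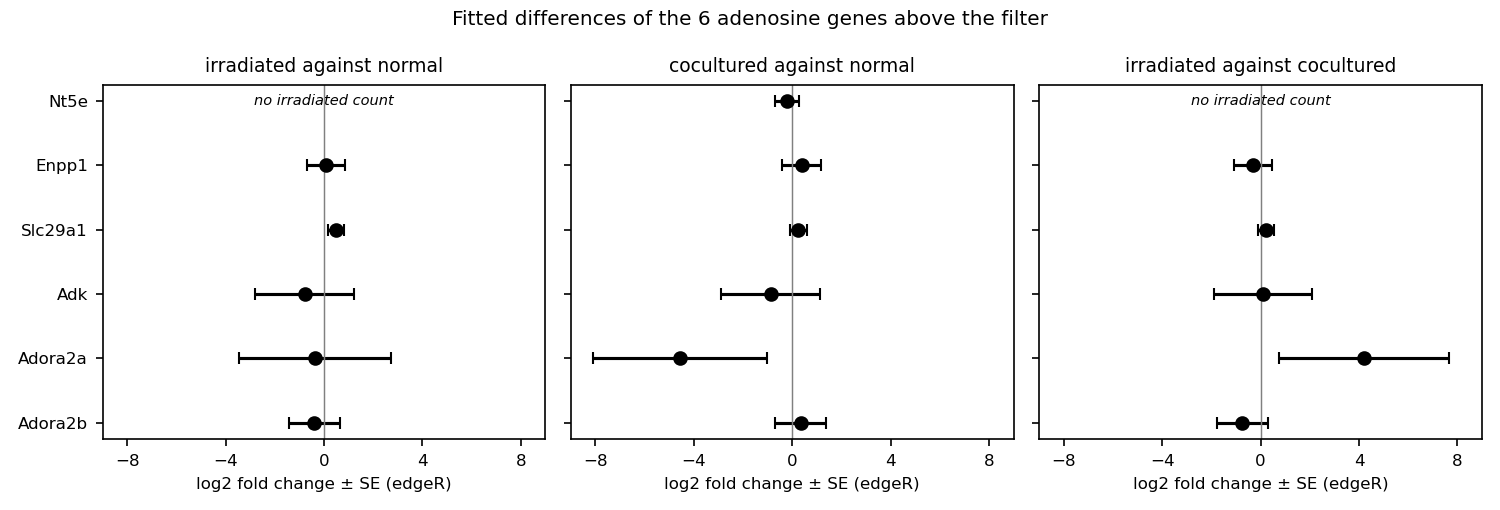
Fitted log2 fold changes (horizontal axis) with their SE from edgeR for the 6 adenosine genes above the filter, in irradiated against normal (left), cocultured against normal (centre) and irradiated against cocultured constructs (right); Nt5e has no point where the irradiated group had no count. Slc29a1 and Enpp1 lie within 0.5 of 0 in all 3 comparisons, and Adora2a has the widest bars.

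Apart from Nt5e, edgeR called none of the 6 genes above the filter in any of the 3 comparisons. Nt5e itself was counted among the called genes in irradiated against normal and in irradiated against cocultured constructs, 1 of the 6 in each, but its irradiated zeros are what chose the set, so nothing is read from these counts. The share of all 11980 tested genes called was 0.0584% in irradiated against normal (3.71% by DESeq2 and 0.209% by limma voom) and 0.0334% in irradiated against cocultured constructs (3.95% by DESeq2 and 0.876% by limma voom). A fit to only the 6 libraries of either pair called 0 of the 10 genes, Nt5e included, and 0 of all genes. Of the other 5 genes above the filter, 0 had an unadjusted p under 0.05 in irradiated against cocultured constructs with edgeR, and 0 were called by DESeq2 or limma voom. In cocultured against normal constructs edgeR called 0 of the 6, where 0% of all genes were called, with 102 higher and 390 lower at an unadjusted p under 0.05. For the 6 genes the count at an unadjusted p under 0.05 was 0 as well, and DESeq2 and limma voom also called none of the 6, with 0.701% and 0% of all genes called. Irradiated libraries were separate from cocultured ones, and from normal ones, for 1 of the 6, which was again Nt5e by its choice; 14.5% and 15.7% of all tested genes were so separated. The median log2 difference of the 6 genes was -0.38 in irradiated against normal constructs, where that of all genes was -0.21. In cocultured against normal constructs it was 0.02, against -0.07 for all genes, and in irradiated against cocultured constructs it was -0.10, beside -0.10 for all genes. These medians include Nt5e, so nothing is read from the 2 that involve irradiated constructs. Of the other 5 genes, Adk, Slc29a1 and Adora2a lay above 0 in irradiated against cocultured constructs, and Enpp1 and Adora2b below.

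The 5 genes whose pattern over the 9 libraries came closest to that of Nt5e were Rrp1b, Il1a, Gap43, Gnb4 and Zswim4. Closeness was the mean absolute difference in log2(normalised CPM + 1) after centring each gene, which was 0.54, 0.56, 0.72, 0.82 and 0.88 for them in that order, while the median over the 8142 genes searched was 2.92. Rrp1b, a ribosomal RNA processing protein gene, was at 0 in all 3 irradiated libraries, at 61.7, 71.6 and 30.4 normalised CPM in cocultured and at 79.9, 47.3 and 59.1 in normal constructs. Gap43, a growth-associated protein of neurons, was also at 0 in the 3 irradiated libraries, and averaged 54.0 ± 2.25 in cocultured and 51.0 ± 24.5 normalised CPM in normal constructs (SD, n = 3 each). Il1a averaged 0.852 ± 1.48 in irradiated, 131 ± 71.3 in cocultured and 101 ± 56.1 normalised CPM in normal constructs (SD, n = 3 each). These genes were picked for their likeness to Nt5e, so their own differences carry no test here.

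**Figure D4:**
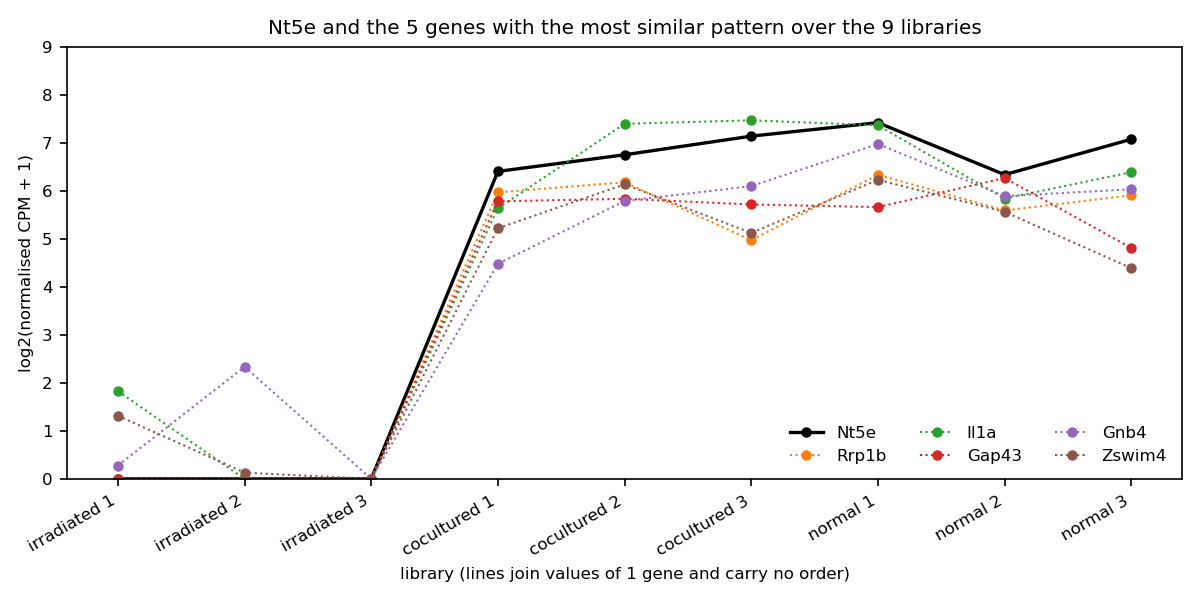
Log2(normalised CPM + 1) of Nt5e (black) and of the 5 genes with the closest pattern in each of the 9 libraries, irradiated at left, cocultured in the middle and normal at right. All 6 genes are below 3 in every irradiated library and above 4 in the other 6; dotted lines join the values of 1 gene and carry no order.

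The genes that flank Nt5e on its chromosome did not share its absence. Of the 3 protein-coding genes on each side, taken by their order in the annotation, Mrap2 had no count in any library and the other 5 had counts in irradiated constructs. Syncrip, an RNA-binding protein gene, averaged 122 ± 20.6 in irradiated, 190 ± 76.1 in cocultured and 134 ± 54.1 normalised CPM in normal constructs (SD, n = 3 each). Tbx18, a T-box transcription factor gene, had 23, 414 and 283 counts in irradiated, 525, 409 and 656 in cocultured and 274, 121 and 91 in normal constructs. Cep162, which encodes a centrosomal protein, was the lowest against normal constructs, with 40, 0 and 60 counts in irradiated, 6, 346 and 134 in cocultured and 87, 85 and 230 in normal constructs, a log2 difference of -2.69 (edgeR's quasi-likelihood test, adjusted p = 0.833). None of the 5 was called in that comparison, and 0.0584% of all genes were.

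A wider list of 88 purine genes covered nucleotide release, further ectonucleotidases and phosphatases, intracellular nucleotidases, purine salvage, transporters, receptors and the coupling of receptors to cAMP. Counts were found for 67 of them and 53 passed the filter. With edgeR 0 of the 53 were called in each of the 3 comparisons. At an unadjusted p under 0.05 there were 4 in irradiated against normal constructs, all lower, 1 in cocultured against normal constructs, and 7 in irradiated against cocultured constructs, 1 of them higher. Over all 11980 genes the same threshold was passed by 190 higher and 1042 lower, by 102 higher and 390 lower, and by 270 higher and 878 lower genes in that order. DESeq2 called 2, 0 and 1 of the list, beside 3.71%, 0.701% and 3.95% of all genes, and limma voom called none. The list's median log2 difference was -0.41 in irradiated against normal, 0.05 in cocultured against normal and -0.08 in irradiated against cocultured constructs, beside -0.21, -0.07 and -0.10 for all genes.

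By role, 2 of 6 release genes were tested. Gja1, the gap junction protein connexin 43, averaged 176 ± 64.1 in irradiated, 389 ± 129 in cocultured and 268 ± 79.1 normalised CPM in normal constructs (SD, n = 3 each), and its log2 difference of -1.14 ± 0.39 between irradiated and cocultured constructs had an adjusted p of 0.493 (edgeR's quasi-likelihood test). The channel gene Panx1 had 10.0, 36.9 and 0 normalised CPM in irradiated, 7.07, 17.2 and 0 in cocultured and 1.64, 12.7 and 0 in normal constructs, so every group had a library at 0 and the groups overlapped. Of 16 further ectoenzymes 7 were tested. Enpp2, which encodes autotaxin, averaged 88.0 ± 38.6 in irradiated, 139 ± 13.5 in cocultured and 118 ± 68.4 normalised CPM in normal constructs (SD, n = 3 each). Acpp, a prostatic acid phosphatase that can also make adenosine from AMP, had 40.5, 0 and 25.5 normalised CPM in irradiated, 22.9, 20.4 and 101 in cocultured and 53.6, 61.6 and 0.274 in normal constructs, so its groups overlapped. Enpp3, a relative of Enpp1, averaged 20.8 ± 18.2 in irradiated, 21.3 ± 8.71 in cocultured and 11 ± 14.7 normalised CPM in normal constructs (SD, n = 3 each).

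Of the 7 intracellular nucleotidases, which make nucleosides inside the cell, 5 were tested. Nt5c2 averaged 36.0 ± 14.8 in irradiated, 44.8 ± 27.0 in cocultured and 14.9 ± 13 normalised CPM in normal constructs (SD, n = 3 each). Nt5c averaged 22.3 ± 10.8 in irradiated, 16.1 ± 13 in cocultured and 43.8 ± 22.6 in normal constructs. Nt5c3 averaged 15.7 ± 13 in irradiated, 20.5 ± 10.8 in cocultured and 26.7 ± 22.1 normalised CPM in normal constructs (SD, n = 3 each). In each of these the 3 groups overlapped. The other transporters with enough counts were 2 of 6, Slc29a3 and Slc29a2, both equilibrative. Slc29a3 averaged 24.3 ± 17.0 in irradiated, 26.2 ± 11.5 in cocultured and 39.0 ± 9.43 normalised CPM in normal constructs (SD, n = 3 each). Slc29a2 averaged 5.22 ± 7.62 in irradiated, 13.8 ± 19.3 in cocultured and 5.38 ± 5.34 in normal constructs.

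In purine salvage 12 of 15 genes were tested. Gda, guanine deaminase, averaged 123 ± 39.6 in irradiated, 295 ± 6.61 in cocultured and 242 ± 81.1 normalised CPM in normal constructs (SD, n = 3 each); its log2 difference of -1.26 ± 0.36 between irradiated and cocultured constructs had an adjusted p of 0.412 (edgeR's quasi-likelihood test). Ak1, the adenylate kinase of muscle, averaged 262 ± 156 in irradiated, 94.5 ± 53.5 in cocultured and 140 ± 124 normalised CPM in normal constructs (SD, n = 3 each), and irradiated 1 and normal 3, the libraries highest in muscle markers, were also its highest 2. The part of that marker difference in Ak1 was not tested. Aprt, which salvages adenine, averaged 113 ± 39.1 in irradiated, 76.1 ± 29.1 in cocultured and 70.7 ± 13.6 normalised CPM in normal constructs (SD, n = 3 each). Of 16 further receptors 5 were tested and 10 had no count in any library, the A3 receptor Adora3 among them. P2rx4, an ATP-gated channel, averaged 25.9 ± 15.3 in irradiated, 34.1 ± 5.68 in cocultured and 45.1 ± 16.3 normalised CPM in normal constructs (SD, n = 3 each). Its relatives P2rx6 and P2rx7 had libraries at 0 in the irradiated group. P2rx6, also an ATP-gated channel gene, had 76, 0 and 0 counts in irradiated, 50, 104 and 226 in cocultured and 90, 43 and 140 in normal constructs. P2rx7, the channel gene best known from immune cells, had 141, 235 and 0 in irradiated, 153, 67 and 259 in cocultured and 2, 44 and 8 in normal constructs.

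Of the 22 genes that couple the receptors to cAMP 20 were tested, and several of them had libraries at 0. Gnas, which encodes the stimulatory G protein alpha subunit, averaged 861 ± 217 in irradiated, 618 ± 82.0 in cocultured and 776 ± 290 normalised CPM in normal constructs (SD, n = 3 each). Gnai2, an inhibitory G protein alpha subunit, averaged 563 ± 37.2 in irradiated, 594 ± 93.3 in cocultured and 549 ± 109 normalised CPM in normal constructs (SD, n = 3 each). Prkar1a, a regulatory subunit of the cAMP-dependent kinase, averaged 408 ± 19.8 in irradiated, 397 ± 66.6 in cocultured and 410.1 ± 72.0 in normal constructs. Nr4a2, a nuclear receptor whose transcript is induced by cAMP, was named after its values were seen, because DESeq2 called it. It had 18.7, 0 and 0.235 normalised CPM in irradiated, 127, 325 and 484 in cocultured and 1462, 363 and 532 in normal constructs. All 3 irradiated libraries lay below every other library. The log2 difference between irradiated and normal constructs was -7.02 ± 1.55, with an adjusted p of 0.142 by edgeR's quasi-likelihood test and 0.00454 by DESeq2. Pde4b, a phosphodiesterase that breaks down cAMP, was named on the same ground and had 108, 60.2 and 94.2 normalised CPM in irradiated, 193, 216 and 124 in cocultured and 246, 210.4 and 238 in normal constructs. The irradiated libraries again lay below all others, by -1.40 ± 0.36 on the log2 scale against normal constructs, with an adjusted p of 0.216 by edgeR's quasi-likelihood test and 0.0229 by DESeq2. By limma voom the adjusted p was 0.200 for Nr4a2 and 0.103 for Pde4b. Of all tested genes 11.8% lay lower in irradiated than in normal constructs without overlap. In this list Adcy6 and Adcy7 did so too, while Nr4a1, Nr4a3, Crem and Sik1 overlapped.

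Markers of other cell types were summed per library to stand beside Nt5e. The fibroblast and stromal markers, with counts for 10 of 10, ranged over 8558 to 13885 in irradiated, 13252 to 17422 in cocultured and 11718 to 18991 normalised CPM in normal constructs. The macrophage and leukocyte markers ranged over 1.53 to 38.5 in irradiated, 21.0 to 169 in cocultured and 107 to 460 normalised CPM in normal constructs, with Cd14, a lipopolysaccharide co-receptor gene, at 4.90, 18.7 and 1.06 in irradiated, 16.8, 135 and 169 in cocultured and 448, 94.5 and 135 in normal constructs. The irradiated sums thus lay below all 3 normal ones and overlapped the cocultured ones. Cd14 made up most of each sum except in irradiated 1, where Csf1r, at 15.8, and C1qa, at 15.3 normalised CPM, exceeded it. In the normal libraries Csf1r was at 7.60, 4.09 and 37.2 and C1qa at 4.11, 0 and 4.10, so the range of the sums is largely that of Cd14. The defining leukocyte marker Ptprc had 1 count in cocultured 1 and none in the other 8 libraries. Endothelial markers ranged over 5.75 to 103 in irradiated, 2.07 to 14.5 in cocultured and 6.16 to 148 normalised CPM in normal constructs, and adipocyte markers over 0 to 1.92, 0 to 14 and 4.11 to 98.0 in the same order. The part of the Cd14 and stromal levels in the Nt5e difference was not tested.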

How the data were processed

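RNA of 9 constructs was sequenced with the QuantSeq 3′ mRNA-Seq FWD kit from 100 ng of total RNA as single 75 bp reads, per the labels' protocols. The authors deposited raw whole-number counts for each symbol, 1 table per library. FastQC, STAR, HTSeq and the builds GRCm39 and mm39 are named in the submitters' processing notes, without versions. Not given in the sources used here: the annotation, the strand setting and how duplicates were treated. Overlapping genes may therefore share reads. Reads without molecular identifiers are not independent molecules. Column headings carry a number 1 above that of the label, and libraries were taken from the series' own record.

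Counts were tested with edgeR 4.0.16 in R 4.3.3: filterByExpr (min.count 10) kept 11980 of 18619 symbols with a count, TMM factors were computed, and all 9 libraries entered 1 quasi-likelihood model of group. A gene was called where its p, adjusted by Benjamini-Hochberg over all tested genes, was under 0.05. Standard errors are approximate, taken from the fitted fold change and its F statistic. Alternatives used DESeq2 1.42.0, limma 3.58.1 voom, other scalings, no filter, fewer libraries and a replicate block. Within-group library pairs differed by a chi-square of 35.4 to 297 per gene, so none was counted as a duplicate.

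The 10 genes and all lists were chosen with earlier results of these data known. Named were all 10 genes, any purine-list gene called by edgeR and up to 3 genes a sublist with the highest mean CPM, and the 5 genes most like Nt5e. Further genes, among them cell type markers, were named outside this rule. All 88 purine symbols were found, Acp3 as Acpp through a RefSeq synonym. Nt5e's neighbours and overlapping genes come from GENCODE M21, an annotation of another build, and were used by name and order. Promoter windows come from RefSeq, and both of those sources differ from the build of the files, so no other coordinates are given.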

Additional observations from a re-analysis of the deposited data

How the results depend on the processing

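Nt5e's irradiated values chose the set, so its calls against irradiated constructs say nothing of stability. Of the 10 genes 1, Nt5e, was counted as called in both of those comparisons, and 0 where only the 6 libraries compared were fitted, a fit with fewer samples that also called 0 of all genes. In cocultured against normal constructs the count was 0 of the 10 under every alternative run, the replicate block included. Only 6 of the 10 passed the main filter, and most alternatives called 0 of all genes in that comparison, so this count says little of stability. Among the other purine genes the counts moved from 0 to 2 (DESeq2), and to 1 (no filter), 1 (replicate block) and 1 (normal 3 and irradiated 1 left out) in irradiated against normal constructs, with 0 to 2 over single libraries left out. In irradiated against cocultured constructs they moved to 1 under each of these 4, with 0 to 2 over libraries left out; the 2, Nr4a2 and Adcy6, came without irradiated 1. Nr4a2 was among the genes called each time, with Pde4b under DESeq2. Leaving out irradiated 2 and 3 together, chosen after seeing the data, called 1 and 3, Ak1 and Pde4d being the further 2.

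Over all genes irradiated against normal gave 7 calls, and 445 with DESeq2, 25 with limma voom, 130 without a filter, 0 with 6 libraries, 23 with the replicate block, 20 without normal 3 and irradiated 1, 190 without irradiated 2 and 3, and 6 to 147 over single libraries left out. Irradiated against cocultured gave 4, and in the same order 473, 105, 153, 0, 12, 21, 449 and 1 to 97, with 9 on library totals. Of the single libraries left out, irradiated 1 gave the highest counts in both. Cocultured against normal gave 0, and 84 with DESeq2, 52 without a filter, 1 without normal 3 and irradiated 1 and 96 without irradiated 2 and 3. The replicate numbers do not pair the libraries: deviations of same-numbered libraries correlated at -0.086 to 0.052.

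Signs that turned were those of uncalled differences (log2). For cocultured against normal these were Nt5e (0.33 on library totals; -0.46 to 0.074 over libraries left out), Enpp1 (-0.051 without normal 3 and irradiated 1; -0.050 to 1.75) and Adora2b (-0.16 to 0.65). For irradiated against cocultured they were Enpp1 (0.43 without irradiated 2 and 3; -0.86 to 0.075), Adk (-1.59 with limma voom, -0.62 on library totals, -1.98 with the block, -6.29 without normal 3 and irradiated 1; -6.29 to 0.85), Adora2a (-3.75 to 7.82) and Slc29a1 (-0.041 without irradiated 2 and 3; -0.15 to 0.43). For irradiated against normal, Adora2b turned to 0.03 on library totals. Adora2a could not be fitted where it missed the filter. The causes were not tested. A floor of 3 counts per library corresponds to 0.282 to 0.639 normalised CPM in irradiated constructs. In cocultured constructs it is 0.310 to 0.339, and in normal ones 0.616 to 0.821. It covers the counting error of independent molecules only, which reads without molecular identifiers are not, so a count of 0 can hide a higher level.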

Other observations

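CD73 is usually read together with CD90 (Thy1) and CD105 (Eng) as a marker set of mesenchymal stromal cells. The companions of Nt5e were barely counted. Thy1 had 4, 0 and 0 counts in irradiated, 1, 0 and 0 in cocultured and 23, 37 and 0 in normal constructs. Eng had 28, 0 and 0 counts in irradiated, 37, 65 and 0 in cocultured and 19, 0 and 21 in normal constructs. Ly6a, which encodes the surface antigen Sca-1, was at 270, 387 and 373 normalised CPM in irradiated, 540, 500 and 778 in cocultured and 328, 303 and 287 in normal constructs. Its cocultured values lay above every normal and every irradiated value, and the irradiated values overlapped the normal ones. Other genes of the stromal marker list, Col1a1 and Pdgfra among them, overlapped between irradiated and cocultured constructs. Of all tested genes 10.6% lay lower in irradiated than in cocultured constructs without overlap, and 5.66% lay higher in cocultured than in normal constructs.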
